A study of Mus musculus with 9 samples.

Results

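The histone genes of mouse periosteal stem and progenitor cells were described here from 3 chromatin tables: peaks of the promoter mark H3K4me3, peaks of HA-tagged PLAGL1, and consensus sites of FLAG-tagged KLF4. A row was taken as a member if its annotated gene name was that of an H1, H2A, H2B, H3 or H4 gene, H2A.Z or H3.3, and its centre lay within 3 kb of that gene's transcription start site (TSS). This gave 47 of 16251 H3K4me3 peaks and 2 of 3463 PLAGL1 peaks, at 43 genes in all, and 17 of 21130 KLF4 sites that overlap these peaks by at least 1 bp. Of the 43 genes, 37 were replication-dependent histone genes (40 H3K4me3 peaks) and 6 were replacement histone genes (7 peaks).

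The cells came from the mandibular angle of mice aged 8 weeks and were held for 3 days in medium with ascorbic acid, beta-glycerophosphate and dexamethasone, which drives bone formation. The assay was CUT&Tag, which uses a transposase bound through an antibody to cut out and sequence the DNA beside a chromatin protein. KLF4 was profiled in 3 libraries from Ctsk-iCre;Plagl1fl/fl cells, where Cre under the control of cathepsin K deletes the floxed Plagl1 gene, and in 3 libraries from Plagl1fl/fl control cells. The single libraries for PLAGL1, for H3K4me3 and for IgG all came from Plagl1fl/fl cells without Cre. PLAGL1-HA and KLF4-FLAG were overexpressed from lentivirus at a multiplicity of 10, and the IgG library came from cells that also received the PLAGL1-HA virus. The H3K4me3 library has no virus in its label. In the labels of the 6 KLF4 libraries the vector is called Klf4 once and then Klf5 up to Klf9, although every title names KLF4, and the titles were followed. The sources used here do not give how far Plagl1 was deleted in the Ctsk-iCre cells or whether replicates came from separate animals. The p-values of that comparison therefore hold for these samples only, and not for a spread between animals. Their degrees of freedom (median 87.6) exceed what 6 libraries give by themselves, so the error of a site was estimated in part from other sites.

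Replication-dependent histone genes supply the bulk of core and linker histones while DNA is copied. They are small genes without introns, they sit in clusters, and their messages end in a stem-loop in place of a poly(A) tail. Replacement histones, among them H3.3 and H2A.Z, are made throughout the cell cycle from single genes with polyadenylated messages, and are put into chromatin outside replication by chaperones of their own. H3K4me3 marks the start of active or poised genes. KLF4 and PLAGL1 are zinc-finger transcription factors that bind GC-rich DNA.

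As a check of the cell label, 10 of 11 markers of periosteal and skeletal progenitors had an H3K4me3 peak within 3 kb, beside 52.2% of all protein-coding genes, with scores from 52 at Alpl to 898 at Pdgfrb. Pdgfra had 818, Ctsk 578, Prrx1 273 and Sp7 232, and Lepr had no peak. All 5 blood and macrophage genes also had peaks, with scores of 35 to 276, a range that overlaps that of the progenitor markers, while 1 of 4 endothelial and 0 of 3 skeletal muscle genes did. Their part in the results below was not tested. Of 5 proliferation genes 4 were marked, Pcna at 1480 and Mki67 at 1270 among them, and Mcm2 was not. Scores are whole numbers set by the authors for each peak, from 20 upward in the H3K4me3 and PLAGL1 lists. They are used here only to describe and rank peaks within a list. Depth per library is unknown, because the tables hold no counts.

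More than 50% of the histone genes carried H3K4me3 at their start, mostly in peaks with scores below the median of all promoters. RefSeq lists 74 protein-coding genes that the naming rule covers or that a member peak names. Of these 43 (58.1%) had an H3K4me3 peak within 3 kb, beside 52.2% of all 21900 protein-coding genes. H2aw and H4f16 entered both counts only through their peaks, which carry the names H2ac25 and H4c16, so the share is raised slightly. Among replication-dependent genes 37 of 65 (56.9%) had a peak in their own name, and among replacement genes 6 of 9 (66.7%) did. The peaks of replication-dependent genes had a median score of 309 (40 peaks, middle 50% from 191 to 500) and those of replacement genes a median of 577 (7 peaks, 44 to 1527). All 13026 H3K4me3 peaks within 3 kb of a TSS had a median of 790, and 4 replication-dependent and 3 replacement peaks lay above that value. Taken per gene by its highest peak, the medians were 313 for replication-dependent genes, 701 for replacement genes and 831 for all 12151 genes with such a peak. H3K4me3 was measured in 1 library and neighbouring genes are not independent, so no test was made of these differences. In such bulk cells a mark carried by few of the cells and a weak mark in all of them cannot be told apart. The plot of scores by histone family shows that every replication-dependent family has its lowest peak between 81 and 113.

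**Figure D1:**
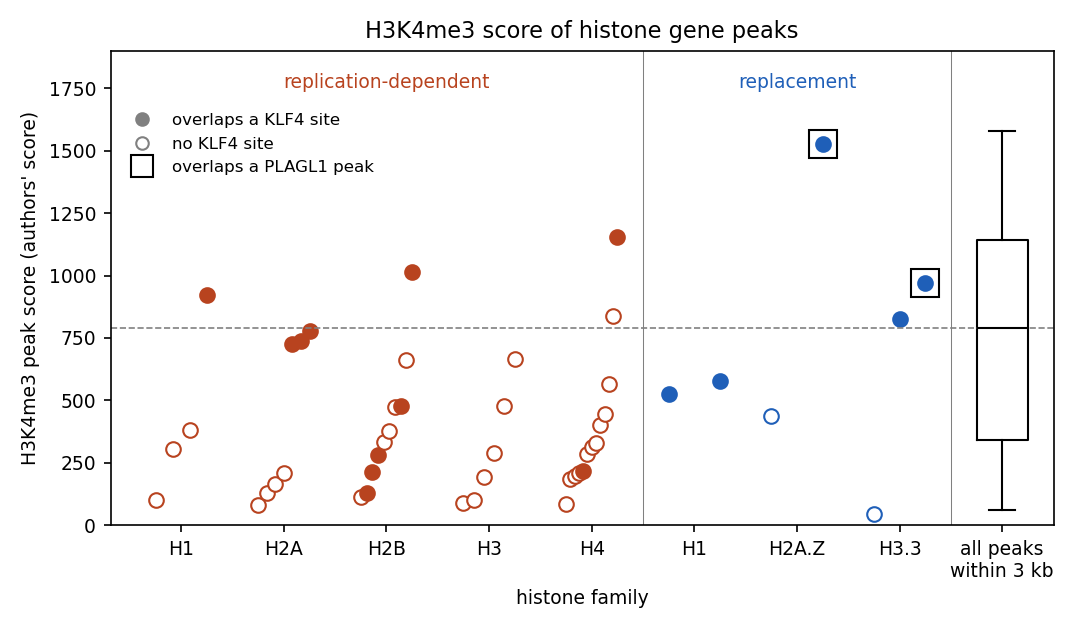
H3K4me3 peak score (y axis, authors' score) of the 40 replication-dependent (red) and 7 replacement (blue) histone peaks by family, with filled circles for peaks that overlap a KLF4 site, squares for those that overlap a PLAGL1 peak, and a box plot of all 13026 peaks within 3 kb of a TSS (box: middle 50%, line: median, whiskers: 5th to 95th percentile). The dashed line is the median of all peaks at 790, above which 4 replication-dependent and 3 replacement peaks lie.

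Promoters of histone genes are known for a few short elements, which are given here for both classes. RefSeq (GRCm38.p6) gives the window from 250 bases before to 50 bases after the start for 40 of the 43 genes, as 41 promoters, all but H2bc4, H3c7 and H4c14. The following stretches of 250 bases end at the base before the start and read 5′ to 3′ in the direction of the gene. Their coordinates are those of GRCm38.p6, while all peak coordinates are in mm39 and cannot be set beside them. They were chosen to show an H2B promoter with the octamer, an H2B promoter of the chromosome 3 cluster, an H4 promoter, the H1 gene with the lowest p in the KLF4 comparison, both genes with a PLAGL1 peak, and the second H3.3 gene. Capitals mark the TATA motif as TATAAA, the CCAAT box (ATTGG on the other strand), the octamer as ATTTGCAT or ATGCAAAT, the GC box as GGGCGG or CCGCCC, and the CACCC element as CCACCC or GGGTGG. Both strands were searched over the whole window of 300 bases, so a match need not stand where such an element acts: the TATAAA of H4c6 is the first 6 bases of its stretch, far from the start. Copies may overlap, as the first pair of GC boxes in H3f3a does.
H2bc3 (chr13:23746484-23746733, plus strand): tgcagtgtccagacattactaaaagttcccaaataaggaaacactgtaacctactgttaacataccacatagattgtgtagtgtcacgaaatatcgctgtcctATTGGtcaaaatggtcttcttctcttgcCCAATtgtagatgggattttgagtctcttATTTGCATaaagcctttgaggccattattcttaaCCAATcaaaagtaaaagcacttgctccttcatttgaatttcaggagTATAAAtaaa
H2bc18 (chr3:96269450-96269699, plus strand): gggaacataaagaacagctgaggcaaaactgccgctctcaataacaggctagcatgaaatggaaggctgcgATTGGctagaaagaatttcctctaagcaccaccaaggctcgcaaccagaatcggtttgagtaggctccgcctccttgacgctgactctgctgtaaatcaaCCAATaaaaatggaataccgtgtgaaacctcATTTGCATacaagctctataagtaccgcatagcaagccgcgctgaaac
H4c6 (chr13:23551669-23551918, minus strand): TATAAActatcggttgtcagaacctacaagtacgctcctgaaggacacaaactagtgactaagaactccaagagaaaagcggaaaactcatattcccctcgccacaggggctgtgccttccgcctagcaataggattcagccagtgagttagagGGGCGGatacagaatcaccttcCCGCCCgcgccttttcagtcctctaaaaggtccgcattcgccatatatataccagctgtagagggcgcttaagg
H1f2 (chr13:23738557-23738806, plus strand): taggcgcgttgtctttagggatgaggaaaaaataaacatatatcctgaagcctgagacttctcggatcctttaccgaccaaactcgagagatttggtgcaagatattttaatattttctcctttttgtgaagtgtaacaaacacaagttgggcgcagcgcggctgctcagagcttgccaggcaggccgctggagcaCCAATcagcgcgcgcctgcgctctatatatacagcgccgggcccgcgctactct
H3f3a (chr1:180813606-180813855, minus strand): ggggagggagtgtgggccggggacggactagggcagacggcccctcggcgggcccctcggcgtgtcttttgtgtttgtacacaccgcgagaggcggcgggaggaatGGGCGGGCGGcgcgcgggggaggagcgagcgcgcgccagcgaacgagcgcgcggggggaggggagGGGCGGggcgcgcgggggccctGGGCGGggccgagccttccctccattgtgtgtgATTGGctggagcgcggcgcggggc
H2az2 (chr11:6444444-6444693, minus strand): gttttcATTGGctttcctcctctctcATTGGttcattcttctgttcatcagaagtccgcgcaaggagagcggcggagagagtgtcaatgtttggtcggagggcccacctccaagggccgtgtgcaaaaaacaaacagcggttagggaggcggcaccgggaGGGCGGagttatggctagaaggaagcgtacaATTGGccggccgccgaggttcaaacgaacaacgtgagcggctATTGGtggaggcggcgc
H3f3b (chr11:116024505-116024754, minus strand): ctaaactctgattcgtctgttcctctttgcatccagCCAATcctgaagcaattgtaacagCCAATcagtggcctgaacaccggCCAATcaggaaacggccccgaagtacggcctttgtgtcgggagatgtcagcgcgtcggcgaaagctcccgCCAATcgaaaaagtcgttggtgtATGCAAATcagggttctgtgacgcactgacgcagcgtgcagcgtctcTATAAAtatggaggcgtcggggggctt

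TATAAA, the core of the TATA box, was found anywhere in the window on either strand in 19 of 35 replication-dependent promoters (54.3%), 1 of 6 replacement promoters (16.7%) and 13.6% of all 32851 promoters. The octamer ATTTGCAT, bound by the OCT1 factor in H2B promoters, was found in 8 of 35 (22.9%), 1 of 6 (16.7%) and 1.74%. All 8 replication-dependent promoters with the octamer belonged to H2B (5 of 9) or H2A genes (3 of 6). The single replacement promoter with an octamer was that of H3f3b, which also holds the only TATAAA among the 6. The CCAAT box, bound by NF-Y, was present in 26 of 35 replication-dependent (74.3%) and 4 of 6 replacement promoters (66.7%), beside 37.4% of all. It was in every H1, H2A, H2B and H3 promoter of the replication-dependent class but in 3 of 12 H4 promoters.

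The GC box GGGCGG, a site for SP and KLF factors, was most frequent in the other class. It stood in 5 of 6 replacement promoters (83.3%), in 16 of 35 replication-dependent ones (45.7%) and in 35.7% of all. Among the replication-dependent families it was most frequent in H4 promoters (9 of 12) and stood in 2 of 9 H2B promoters. H3f3a has 4 copies in the 250 bases printed above. CCACCC, also a binding element of KLF factors, was in 6 of 35 replication-dependent (17.1%), 1 of 6 replacement (16.7%) and 31.5% of all promoters. In the replication-dependent class the GC box was in 3 of 10 promoters of genes whose peak overlaps a KLF4 site. It was in 13 of 25 promoters of the other genes. For CCACCC the counts were 2 of 10 and 4 of 25, and no relation to KLF4 was tested. The median GC content was 45.7% in replication-dependent, 72.7% in replacement and 52.7% in all promoters, and H2B promoters had the lowest median at 40.0%. These matches are descriptions of the reference sequence and do not show binding.

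**Figure D2:**
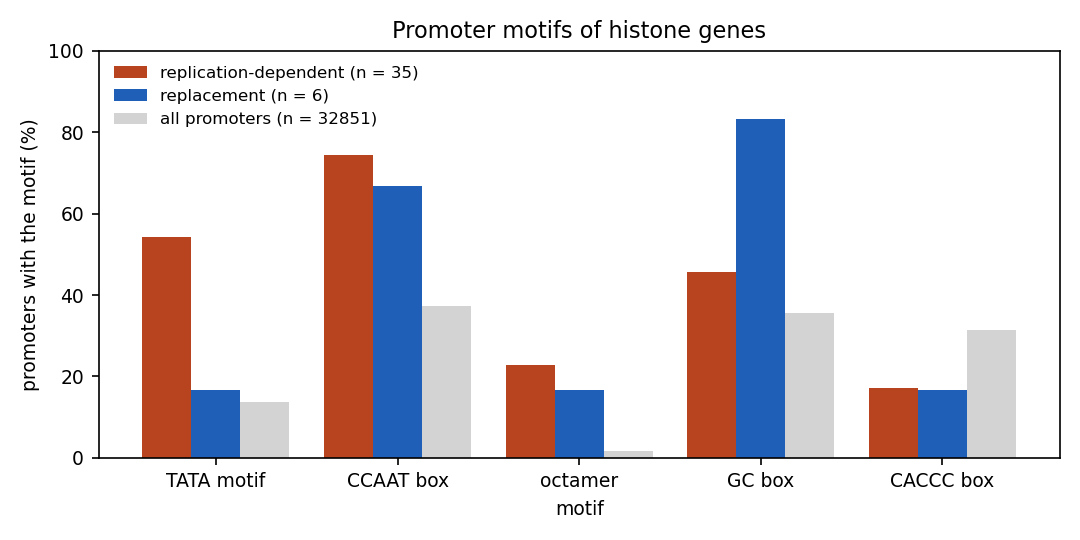
Share of promoters that hold each motif (y axis, %) for replication-dependent (red, n = 35) and replacement (blue, n = 6) histone genes and for all RefSeq promoters (grey, n = 32851). The TATA motif, TATAAA anywhere in the window of 300 bases on either strand, was most frequent in replication-dependent promoters at 54.3% and the GC box in replacement promoters at 83.3%.

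Within the replication-dependent class the highest scores came from each of the chromosome 3 and chromosome 13 clusters. H4c14, a histone H4 gene of the chromosome 3 cluster, led with a score of 1156 (chr3:96169544-96171673, mm39, 2130 bp wide, percentile 76.0 of peaks within 3 kb). It was followed by a peak named for the H2B gene H2bc6 (1013, chr13:23805001-23806587) and by the linker histone gene H1f2 (921, chr13:23922704-23924378). The H4 gene H4c17 had 837 (chr13:21995935-21996939) and the H2A gene H2ac20 had 780 (chr3:96126583-96128829). H2bc6 had a second peak with a score of 662 at the start of another transcript of that name (chr13:23768865-23770114), and RefSeq too gives it 2 promoters. In the RefSeq order H2bc6 lies next to the linker gene H1f4, for which no peak is named, so the peak with 1013 cannot be given to 1 of these neighbours from the table alone. The lowest scores were 81 at a second peak named H2ac19 (chr3:96147611-96147988), 85 at H4c2 (chr13:23940848-23941098) and 89 at H3c15 (chr3:96145481-96145863). The linker gene H1f1 followed with 103 (chr13:23947581-23947944). The annotation class of the peak with 81 names H2ac18, the RefSeq neighbour of H2ac19, so that peak may belong to H2ac18. Of the peaks named here the leading 4 were above the median of all peaks, and the 3 lowest were 251 to 383 bp wide.

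Most replication-dependent peaks stood in 3 clusters. Member peaks fell into a block of 13 on chromosome 13 (chr13:21899939-22227914), a second block of 19 on the same chromosome (chr13:23714660-23947944) and a block of 6 on chromosome 3 (chr3:96126583-96177577). Their median scores were 286, 382 and 470. Outside these blocks stood H2ac25 on chromosome 11 (736) and H4c16 on chromosome 6 (187). By family of the gene that names the peak, the medians were 344 for H1 (4 peaks), 208 for H2A (7) and 355 for H2B (10). They were 240 for H3 (6) and 313 for H4 (13). The ranges overlapped widely, from 103 to 921 for H1, 81 to 780 for H2A, 113 to 1013 for H2B, 89 to 664 for H3 and 85 to 1156 for H4.

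Each family held peaks from low to high scores. The linker genes of the chromosome 13 clusters had scores of 921 (H1f2), 382 (H1f3), 305 (H1f5) and 103 (H1f1), and H1f1 stands beside H4c1 (218). Peaks named for H2A genes split into groups. A group of 3, H2ac20, H2ac25 and the main H2ac19 peak, had scores from 726 to 780. A group of 4, at H2ac13, H2ac22, H2ac12 and the minor H2ac19 peak, had scores from 81 to 208. No peak named for an H2A gene lay between these groups. The split depends on naming, because some peaks named for H2B genes are annotated at H2A transcripts. Among them are H2bc4 at H2ac6 (478), H2bc15 at H2ac15 (472), H2bc8 at H2ac8 (377) and H2bc11 at H2ac11 (332). Conversely, H2ac20 (780) is annotated at H2bc21, H2ac25 (736) at H2bu1-ps and H2ac13 (208) at H2bc13, so both groups hold such peaks. For H2B, which pairs with H2A in the nucleosome, the peaks below the H2bc6 pair were those of H2bc4 (478), H2bc15 (472), H2bc8 (377), H2bc11 (332), H2bc3 (280), H2bc18 (214), H2bc14 (128) and H2bc7 (113). The H3 genes had 664 at H3c7, 479 and 103 at H3c6, 288 at H3c8, 192 at H3c11 and 89 at H3c15. H4 was the family with the most marked genes, 13, and the scores between its extremes were those of H4c17 at 837, H4c8 at 564, H4c3 at 444, H4c4 at 401, H4c12 at 330, H4c18 at 313, H4c9 at 286, H4c1 at 218, H4c6 at 210, H4c11 at 198 and H4c16 at 187. H3 and H4 peaks were narrow, with median widths of 487 and 890 bp.

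The replacement genes covered a wide range of scores. H2az2, a gene for the variant H2A.Z, had the highest score of any histone gene at 1527 (chr11:6393490-6394725, percentile 93.7). The H3.3 genes H3f3a and H3f3b had 972 (chr1:180639989-180642136) and 825 (chr11:115914045-115915572), and H3f3a had a second, small peak of 44 further into the gene. The linker genes H1f0, which is known from cells that have left the cycle, and H1f10 had 577 (chr15:78911983-78915256) and 525 (chr6:87957565-87959303). H2az1, the other H2A.Z gene, had 436 (chr3:137570823-137571519). No peak was named for H1f7 and H1f8, known from the male germ line and the oocyte, or for H3f3c. H1f0 had the widest histone peak, 3274 bp, beside a median of 1118 bp for replication-dependent, 1528 bp for replacement and 1287 bp for all peaks within 3 kb.

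Most histone peaks spanned the annotated TSS: 36 of 40 replication-dependent (90%) and 5 of 7 replacement peaks (71.4%), beside 87.6% of all. The 6 that did not were those of H4c17, H4c18, H3c15 and H2az1, and the smaller peaks of H3c6 and H3f3a. At H2az1 the peak began 575 bp downstream of the start, and upstream of it stood another peak (chr3:137569737-137570588, score 517) that the authors' annotation gave to the gene Gm43403. The gap between both peaks was 234 bp. The members nearest to the limit of 3 kb were the small H3f3a peak, 1697 bp from the start, and the H1f0 peak at 1207 bp. The nearest H3K4me3 peak beyond the limit was one named for H2bc13 at 5453 bp (score 854).

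**Figure D3:**
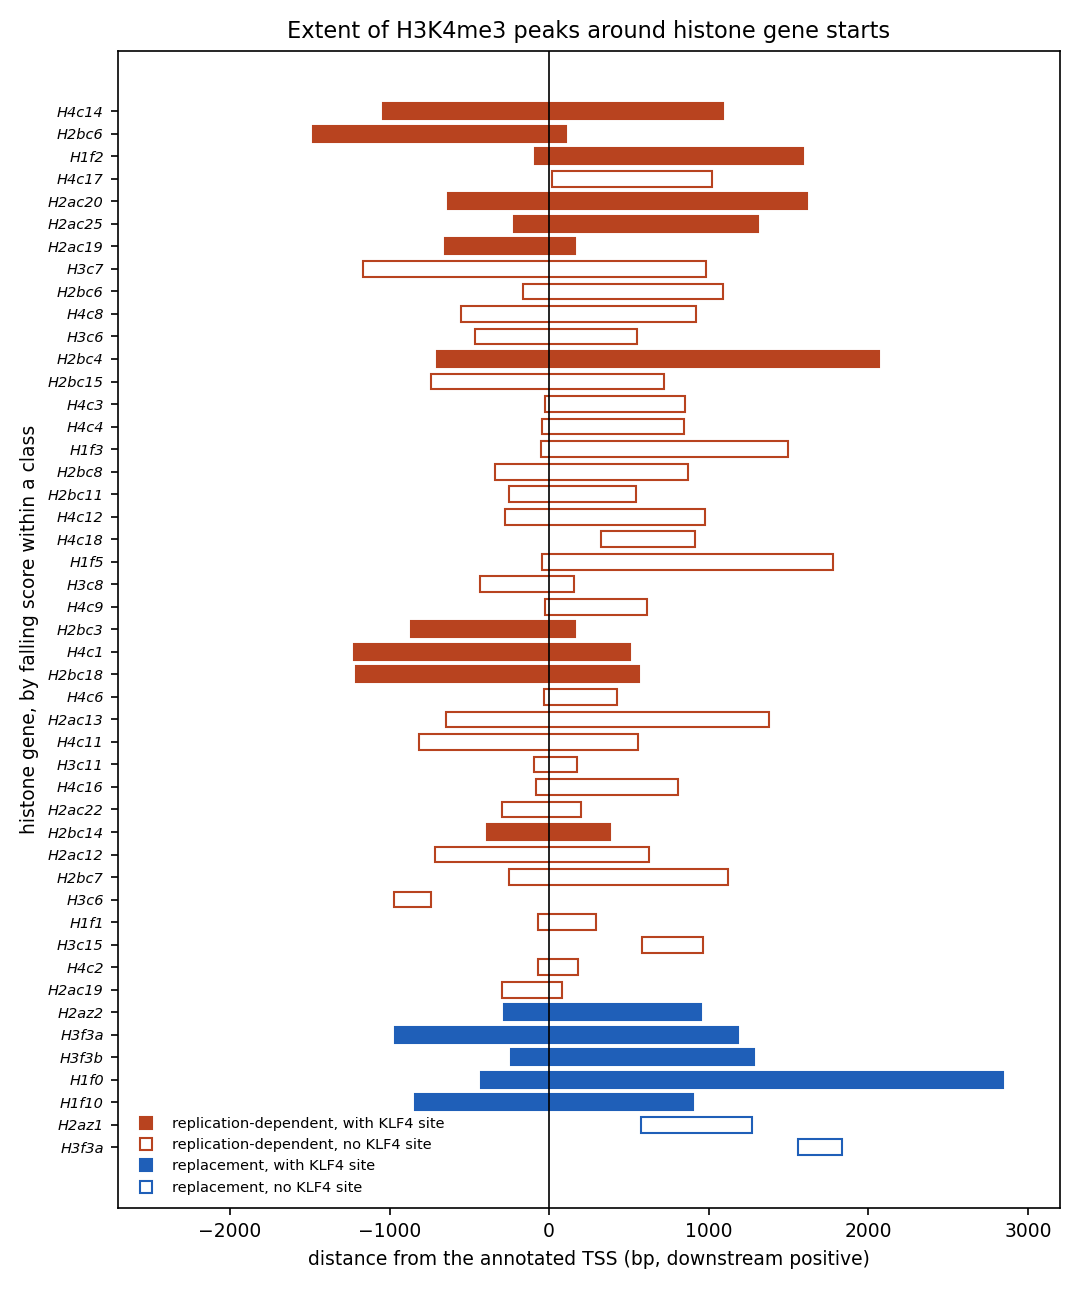
Extent of each of the 47 H3K4me3 histone peaks (bars, 1 row per peak, by falling score within a class) relative to the annotated TSS in bp (x axis, downstream positive), filled where the peak overlaps a KLF4 site. In all, 41 bars cross the start, and 6 of the 7 highest replication-dependent bars are filled.

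Many histone genes without a peak of their own name stood beside a marked one. Of the 31 histone genes with no peak in their own name 28 were replication-dependent, and 25 of these lie next to a marked histone gene in the RefSeq order. For 10 of them the annotation class of a neighbour's peak names their own transcript. Examples are H2ac15 under the H2bc15 peak (score 472), H2bc21 under the H2ac20 peak (780), H2ac6 under the H2bc4 peak (478) and H3c3 under the H2bc3 peak (280). The count of 37 marked replication-dependent genes is therefore a count of names. H2bc23 and the testis histone genes H2ac1 and H2bc1 had neither a peak within 3 kb nor a marked histone neighbour. Near-identical copies add a further limit: among 70 promoters of histone genes 6 had an identity of 90% or more to another, in the pairs H4c17 and H4c18 (99.3%), H3c14 and H3c15 (94.7%) and H4c11 and H4c12 (91.3%). The sources used here do not give how reads with several matches were treated, so the scores of these genes are uncertain. H3c14 has no peak of its own name.

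Tagged PLAGL1 was found at 2 of the 6 marked replacement genes and at none of the 37 marked replication-dependent genes. Of all marked protein-coding genes 10.2% had a PLAGL1 peak within 3 kb, and of all protein-coding genes 5.89%. At H3f3a the PLAGL1 peak lay upstream, at -201 bp from the start (chr1:180641282-180641460, 179 bp wide) with a score of 64, rank 587 of 3463. At H2az2 it lay 111 bp downstream, in intron 1 (chr11:6394119-6394546), with a score of 22 and rank 2916. Both lay inside the H3K4me3 peak of the gene and both overlapped a KLF4 site. By peaks, 0 of 40 replication-dependent and 2 of 7 replacement H3K4me3 peaks overlapped a PLAGL1 peak, beside 9.63% of all 13026. Among all peaks the share was 3.84%, 9.67%, 13.3% and 11.8% in 4 equal bands of rising H3K4me3 score, and 23 of the 40 replication-dependent peaks lay in the lowest band. No PLAGL1 peak lay anywhere within the 3 clusters. PLAGL1 was profiled in 1 library, and its absence from a peak list is no measure of absence from the gene.

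KLF4 was found in both classes. A KLF4 site overlapped 11 of 40 replication-dependent peaks (27.5%, Wilson 95% interval 16.1% to 42.8%) and 5 of 7 replacement peaks (71.4%, 35.9% to 91.8%), beside 64.7% of all peaks within 3 kb (63.8% to 65.5%). These intervals cover counting error only, and peaks of 1 cluster share their surroundings. The peak score moves with this count, and so does peak width. In the lowest score band (20 to 342) 4 of 23 replication-dependent peaks had a KLF4 site (17.4%), beside 29.4% of all peaks. In the next band (343 to 790) it was 4 of 13 (30.8%), beside 62.3%. Above the median score 3 of 4 replication-dependent peaks had one (75%), beside 83.5% of all, and so did all 3 replacement peaks there. The replication-dependent peaks with a KLF4 site had a median score of 726 (11 peaks), and those without had 288 (29 peaks). Their median widths were 1675 and 890 bp, beside 1411 and 1025 bp for all peaks with and without a site. A wide peak meets the overlap rule of 1 bp more easily, and shares at equal width were not compared.

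**Figure D4:**
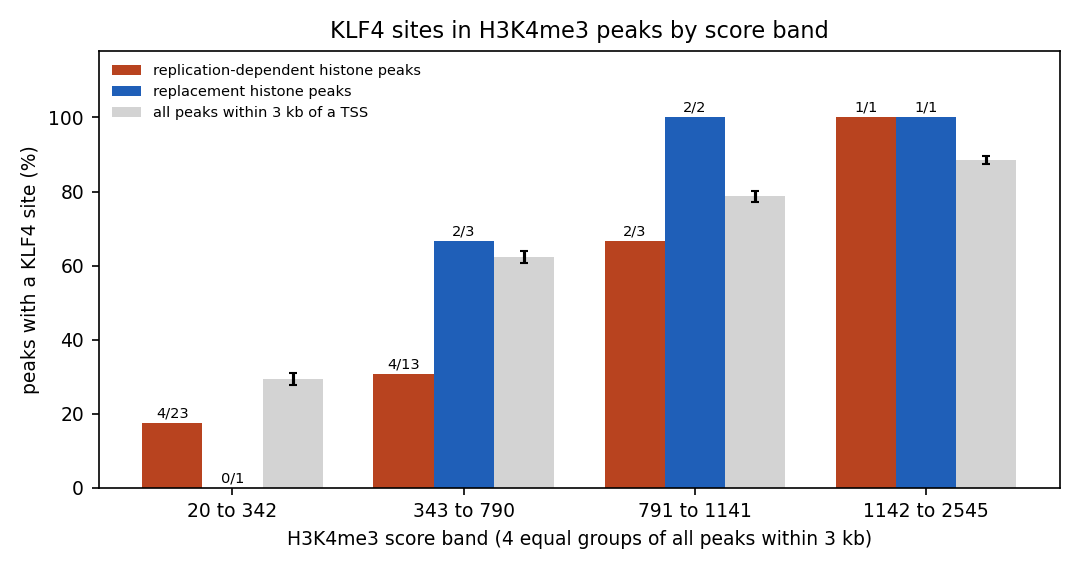
Share of H3K4me3 peaks that overlap a KLF4 site (y axis, %) in 4 equal score bands for replication-dependent (red) and replacement (blue) histone peaks and for all peaks within 3 kb of a TSS (grey, with Wilson 95% intervals), with counts above the histone bars. In the lower 2 bands the replication-dependent share was 17.4% and 30.8%, beside 29.4% and 62.3% of all peaks.

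The share of peaks with a KLF4 site differed between the clusters and between the families as peaks are named. KLF4 overlapped 1 of 13 peaks in the first chromosome 13 block, that of H2bc14, and 5 of 19 in the second, those of H2bc6, H2bc4, H1f2, H2bc3 and H4c1. In the chromosome 3 cluster it overlapped 4 of 6, at H2ac20 (2 sites), H2ac19, H4c14 and H2bc18. Among all peaks within 3 kb the share was 64.7%. The median scores of these clusters (286, 382 and 470) rise in the same order as their shares, and clusters were not compared at equal score. Outside these clusters H2ac25 had a site and H4c16 had none. Families were taken from the gene that names the peak. By family, 5 of 10 H2B, 3 of 7 H2A, 1 of 4 H1, 2 of 13 H4 and 0 of 6 H3 peaks overlapped a site. These shares depend on naming, because some peaks are annotated at a gene of another family. Among peaks with a site, H2bc3 is annotated at H3c3, H2bc4 at H2ac6 and H2ac20 at H2bc21. The H2bc6 peak with a site, counted here under H2B, cannot be assigned between H2bc6 and its neighbour H1f4. The H3c7 peak, without a site, is annotated at H2bc9. Among replacement genes all but H2az1 had a peak that overlapped a site, at H1f0 only at the downstream edge of the peak. At H2az1 a KLF4 site lay in the neighbouring peak named Gm43403.

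The strongest KLF4 site of any histone gene was at H3f3a (chr1:180640973-180642154), with a mean of 7.14 log2 CPM, the read count scaled to library size, and rank 881 of 21130 in the authors' deposited table. H2az2 followed with 6.42 (chr11:6394055-6394730, rank 2637) and H4c14 with 6.22 (chr3:96169602-96170718, rank 3402). The 12 sites of replication-dependent genes had a median mean signal of 4.71 log2 CPM, the 5 of replacement genes 5.37 and all sites 5.08. Above the median of all sites were 4 of the 12 and 4 of the 5. The median distance of a histone site from the centre of its H3K4me3 peak was 328 bp. The H1f0 site (chr15:78914870-78915444) was the farthest, 1538 bp from the centre and at the edge of the widest peak. The centre of that peak is itself 1207 bp downstream of the H1f0 start. The site lies further downstream, runs past the end of the peak and is on the side of the next RefSeq gene, Gcat. It therefore cannot be given to H1f0 from the overlap alone.

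The last comparison set KLF4 in Ctsk-iCre;Plagl1fl/fl cells against Plagl1fl/fl cells. No histone site was called: 0 of 17 had an adjusted p under 0.05 in the authors' deposited table (edgeR), where 10 of all 21130 sites did (0.0473%). At an unadjusted p under 0.05 it was 1 of 17, beside 6.46% of all sites. The table gives no values per library and does not say which genotype stands on top of the ratio, so no group is attached to a sign. Of the 17 sites 9 had a positive and 8 a negative log2 fold change, with a median of 0.04, beside 0.00 and 50.3% positive among all sites of the authors' deposited table. For replication-dependent genes the median was 0.15 (12 sites, -0.34 to 0.47) and for replacement genes -0.00 (5 sites, -0.41 to 0.07).

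The site with the lowest p was that of the linker histone gene H1f2 (chr13:23923330-23924066). Its log2 fold change in the authors' deposited table was -0.34 (approximate 95% interval -0.67 to -0.01) with p = 0.042 and adjusted p = 0.76. Next came H2bc18 (chr3:96176945-96177560), with 0.47 (-0.09 to 1.03), p = 0.097 and adjusted p = 0.82 in the authors' deposited table, and H2ac19 (chr3:96152397-96152693), with 0.41 (-0.11 to 0.94), p = 0.12 and adjusted p = 0.84. None of these 3 passed the threshold. H1f2 is the only 1 of the 17 whose interval does not include 0, which restates its unadjusted p, as the intervals were computed from F and p. The 3 sites with the highest mean signal gave the narrowest intervals: 0.04 (-0.14 to 0.22) at H3f3a, -0.00 (-0.23 to 0.22) at H2az2 and -0.00 (-0.26 to 0.26) at H4c14, in the authors' deposited table. Both sites that carry a PLAGL1 peak are among them. At H1f10, the weakest replacement site, the log2 fold change in the authors' deposited table was -0.41 (-1.01 to 0.19). At H3f3b it was 0.07 (-0.26 to 0.41) and at H1f0 -0.07 (-0.40 to 0.26). The intervals at H1f10 and H2bc18, among the widest here, leave changes of up to -1.01 and 1.03 within them.

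**Figure D5:**
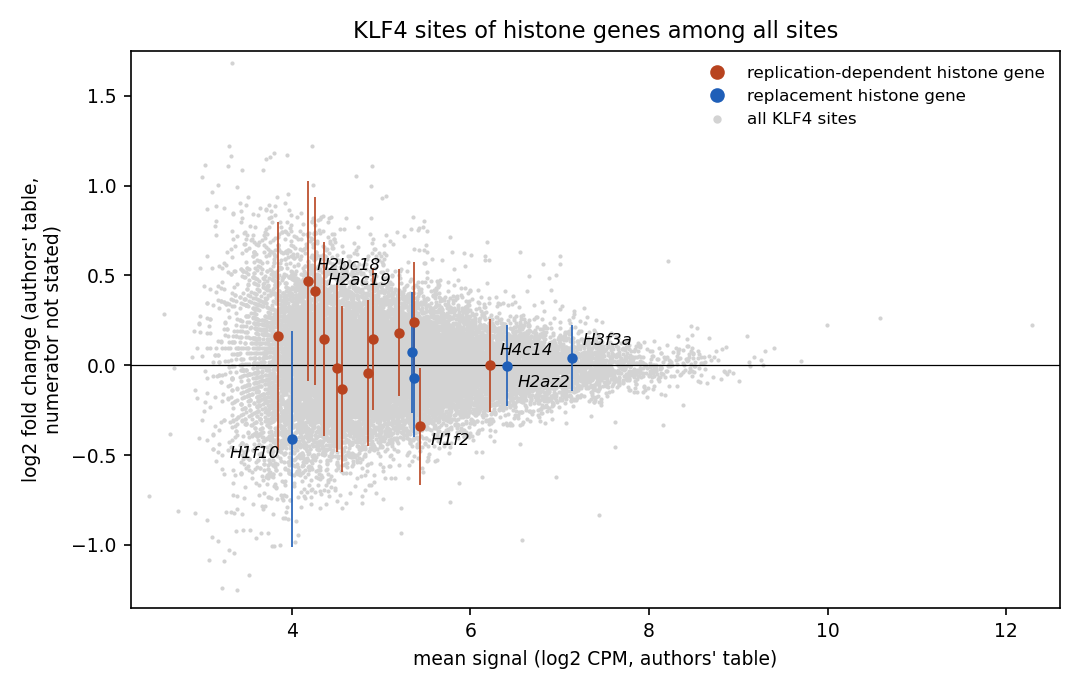
Log2 fold change of KLF4 between Ctsk-iCre;Plagl1fl/fl and Plagl1fl/fl libraries (y axis, authors' deposited table, numerator not stated) against mean log2 CPM (x axis) for all 21130 sites (grey) and the 17 sites of replication-dependent (red) and replacement (blue) histone genes, with approximate 95% intervals. All histone intervals except that of H1f2 include 0, and they tend to narrow from left to right.

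Genes that help to make and place histones had scores near those of genes in general, again from 1 library and without a test. Of 30 genes for histone gene transcription, message processing and chaperoning, 27 had an H3K4me3 peak within 3 kb, beside 52.2% of all protein-coding genes. Their median score was 913 (209 to 1808), beside 831 for all genes with a peak. A KLF4 site overlapped the mark of 23 of the 27, while 64.7% of all peaks within 3 kb had one. Of all peaks above the median score of 790, 83.5% had a site. The count for the list is per gene and was not compared at equal score, so it is not read as an excess. Npat, the coactivator that gathers at the histone clusters, had 1437, and Casp8ap2, which acts beside it in processing, had 1149. Slbp, which binds the stem-loop of histone messages, had 1502, and the chaperone gene Nasp had 1808. The H3.3 chaperone genes Hira, Daxx and Atrx had 928, 1308 and 500, while Chaf1b and Chaf1a, of the chaperone that works at replication, had 911 and 209. No peak was named for Asf1b, Srcap and Zfp473. PLAGL1 peaks were at 2 of the 30, at Nfya (score 69), a subunit of the CCAAT-binding NF-Y, and at Hinfp (30), a factor of H4 promoters. Of all protein-coding genes 5.89% had one, and of marked genes 10.2%, so this count is near the background.

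Histone genes whose names the rule does not cover had a median score of 964. Of 15 such names 6 had a peak within 3 kb, beside 52.2% of all protein-coding genes. They were H2ax (1319), the histone phosphorylated at DNA breaks, Macroh2a1 (1166), H2aj (1032), Macroh2a2 (895), Cenpa (502), the histone of the centromere, and H3f4 (250). The names H2aw and H4f16 of that list are RefSeq's for H2ac25 and H4c16. KLF4 sites overlapped 3 of the 6 marks, those of H2ax, H2aj and Cenpa, beside 64.7% of all peaks within 3 kb. A PLAGL1 peak (score 72, chr11:58850968-58851173) lay 1467 bp upstream of H3f4, inside its H3K4me3 peak, and H3f4 is the RefSeq neighbour of H2ac25.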

How the data were processed

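CUT&Tag libraries were described from the tables the authors deposited, in mm39 coordinates per the submitters' processing notes. The submitters' notes list MACS3 3.0.2, HOMER 4.11.1, edgeR 4.2.0, Trim Galore 0.6.10, DiffBind 3.16.0, Bowtie2 2.5.4, SAMtools 1.21, GATK 4.5.5.0 and deepTools 3.5.5 without saying what each did. The sources used here do not give how duplicates or reads with several matches were treated or how libraries were scaled, and scaling sets where a log2 fold change of 0 lies. Peak score, distance to the TSS and gene name are the authors' values, per the file headers. The sources used here do not give whether H3K4me3 peaks were called against a control. For KLF4, log2 fold change, mean log2 CPM, F, p-value and adjusted p-value are those of the authors' deposited table, credited to edgeR by its name. Benjamini-Hochberg adjustment of the deposited p-values over all sites gave the deposited adjusted p-values to within 5.8e-14. There are 0 columns of values from further samples.

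The rest was computed with scipy 1.17.1, numpy 2.4.6 and pandas 2.3.3 in Python 3.11.15, plotted with matplotlib 3.10.9, and its functions were tested on simulated data. Overlap meant at least 1 bp. For each KLF4 site the log2 fold change, without its sign, was divided by the square root of F to give a standard error, and a t distribution gave the 95% interval, with degrees of freedom that match F to p (median 87.6, used where F was under 0.5). Replication-dependent genes were H1f1 to H1f6 and the H2ac, H2bc, H3c and H4c names, and the rest were replacement genes. Clusters were member peaks less than 1 Mb apart. Promoters and gene order came from RefSeq GRCm38.p6, used for sequence, names and neighbours. Identity between promoters was ungapped, over shifts of up to 20 bases. Genes named with values were, in each class, the 5 with the highest and the 3 with the lowest H3K4me3 score, all replacement genes, all with PLAGL1, and the KLF4 sites with the 3 lowest p-values and the 3 highest means; others are examples. Members and lists were chosen with earlier results of these data known. The planned comparison of H3 proteins was left out, as no protein table was used here.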

Additional observations from a re-analysis of the deposited data

How the results depend on the processing

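No paired analysis was possible because the KLF4 table has no values per library. For the same reason refits with other scaling, filters or tools and fits without single libraries were not run. The count of histone genes with an H3K4me3 peak stayed within 1.5 times at a TSS limit of 1000 bp (42 genes, against 43) and came to 11 when only the upper 50% of the list by score was used. PLAGL1 was at 2 genes at either limit and at 1, H3f3a, in the upper 50% of its list. Replication-dependent peaks with a KLF4 site numbered 11 at 1000 bp and at an overlap of 50% of the site, and 4 when only the upper 50% of sites by mean signal was used. For replacement peaks the number was 4 or 5 throughout. KLF4 calls stayed at 0 at an adjusted p under 0.10 and with adjustment over autosomes, and came to 1 without adjustment. With the mean over all peaks of a gene the median score was 305 for replication-dependent and 551 for replacement genes. Adding the other histone genes brought the replacement median to 860 and left the replication-dependent median at 313. All of these added genes with a peak, H2ax and H3f4 among them, were put with the replacement genes without being sorted by class. The value of 860 therefore does not describe replacement histones alone. The upper 50% holds fewer peaks or sites by construction, and 7 of the 47 histone peaks lay above the median score of peaks within 3 kb. Depth per library is unknown, and H3K4me3 and PLAGL1 had 1 library each.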

Other observations

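Peaks named for histone genes also lay beyond 3 kb of their start. The strongest was an intergenic H3K4me3 peak 35532 bp from H3f3a (chr1:180605036-180606241, score 1042), higher than the peak at the H3f3a promoter (972). It held a KLF4 site with a log2 fold change of -0.25 (approximate 95% interval -0.52 to 0.01, p = 0.064, adjusted p = 0.79) in the authors' deposited table (edgeR). Beside the chromosome 3 cluster an intergenic H3K4me3 peak 8537 bp from H2bc18 (score 486, chr3:96185236-96185871) held both a PLAGL1 peak (score 51, chr3:96185604-96185808, rank 923 of 3463) and a KLF4 site with a log2 fold change of 0.33 (-0.14 to 0.79) in the authors' deposited table. Peaks named for H2bc13 (5453 bp away, score 854) and H2bc11 (7542 bp away, 526) stood just outside the ends of the first chromosome 13 cluster, whose median score was 286, and each held a KLF4 site with log2 fold changes of -0.32 and 0.16 in the authors' deposited table. Within the span of that cluster 9 of 24 H3K4me3 peaks were named for other genes, and in the second chromosome 13 cluster 1 of 20 was.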
